A study of Mus musculus with 81 samples.

Results

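The heparan sulfate proteoglycans, sulfatases and midkines described here are 10 genes: the heparin-binding growth factors Mdk and Ptn, the syndecans Sdc1, Sdc2, Sdc3 and Sdc4, the glypicans Gpc3 and Gpc6, and the extracellular sulfatases Sulf1 and Sulf2. They were chosen by name from 22869 genes in the table. They fill 15 of its 29510 transcript rows, and each gene was represented by its row of highest mean over the cells. Pancreata were taken at embryonic day 13.5 from CD1 mice that were wild type, the cells were freed with trypsin, and 1 library was made from each of 81 cells caught on a microfluidic device. All cells belong to 1 group, with no treatment and no altered allele named. Because no embryo or litter is identified, the cells count as 1 sample. Kinds of cells were compared without any test, and every spread given is over cells. The study's labels describe a profile of pancreatic progenitors.

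Heparan sulfate is a sulfated sugar chain attached to core proteins at the cell surface, where syndecans span the membrane and glypicans are held by a lipid anchor. The chains bind FGF, Wnt, Hedgehog and midkine-type ligands and set how far these travel and how well they reach their receptors. Sulf1 and Sulf2 are secreted enzymes that remove 6-O-sulfate groups from finished chains and so alter which ligands bind. In the embryonic pancreas, the branching epithelium grows in contact with a mesenchyme that supplies such signals.

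The values are RPKM, reads scaled by transcript length and library size, so levels of different genes can be set side by side. A gene was counted as detected at 1 RPKM or more. The estimated depth was 1.65M to 5.36M reads in 77 cells and far lower in C3, C61, C94 and C43 (19.7K to 416.3K reads). The median over all cells was 3.50M. In a cell of median depth, 1 RPKM corresponds to 2.71 reads of Mdk, the shortest member, and to 17.4 reads of Sdc3, the longest. Clustering without the members and their pathway genes gave 68 mesenchymal-like cells, 5 epithelial-like, 4 leukocyte-like, 2 endocrine-like and 1 mesothelial-like cell, named from marker lists. The shallowest cell, C3, was left unnamed. None of the 10 leading genes of the 4 mesenchymal-like clusters was a listed marker, and each cluster rests on 6 of 20 mesenchyme markers. Within this class, C22 and C72 reached 10 RPKM in 8 and 11 of 14 endothelial markers, C45 in 8 of 10 neural crest markers, and C29, C37 and C41 in 3 or 4 of 7 mesothelial markers. Differences from the mesenchymal-like class are therefore also given without these 6 cells where that matters.

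Promoter windows show what is written upstream of a gene read in every cell and of Sdc4 and Sulf2, the members with the largest differences between epithelial-like and mesenchymal-like cells. RefSeq windows (mouse build GRCm38.p6, which is not the mm9 build of the expression table) were found for 6 of the 10 members. The stretches are the 250 bases upstream of the annotated start, 5′ to 3′ on the gene's strand. Gpc3 is at chrX:52613975-52614224, Sdc4 at chr2:164443189-164443438 and the more downstream of the windows listed for Sulf2 at chr2:166155286-166155535, all on the minus strand. Capitals mark the GC box GGGCGG or its reverse complement CCGCCC.
Gpc3: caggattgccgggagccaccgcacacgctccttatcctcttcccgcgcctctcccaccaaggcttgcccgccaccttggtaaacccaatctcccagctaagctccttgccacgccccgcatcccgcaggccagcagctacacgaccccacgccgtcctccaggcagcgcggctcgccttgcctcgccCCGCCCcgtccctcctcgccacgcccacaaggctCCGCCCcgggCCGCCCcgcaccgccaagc
Sdc4: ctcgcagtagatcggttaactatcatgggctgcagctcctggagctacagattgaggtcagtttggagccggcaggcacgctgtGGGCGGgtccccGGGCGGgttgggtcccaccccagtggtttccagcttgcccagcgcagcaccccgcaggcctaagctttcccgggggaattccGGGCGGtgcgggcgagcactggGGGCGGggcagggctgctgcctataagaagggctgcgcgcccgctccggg
Sulf2: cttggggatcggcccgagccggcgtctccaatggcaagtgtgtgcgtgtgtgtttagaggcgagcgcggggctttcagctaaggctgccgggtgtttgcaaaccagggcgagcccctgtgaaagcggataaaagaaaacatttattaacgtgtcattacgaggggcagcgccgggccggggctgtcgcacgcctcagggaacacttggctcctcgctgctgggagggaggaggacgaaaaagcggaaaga

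The Gpc3 window held 3 GC boxes and the Sdc4 window 4, while the printed Sulf2 window held none. No printed match overlaps another. Of 32851 upstream windows of the same length, 32.7% held a GC box on either strand. A TATA box (TATAAA, found in 12.4% of all windows) was in none of the 3 stretches, and neither was the E box CACGTG (6.02% of windows). The other Sulf2 window, at chr2:166155684-166155933, is not printed and held 1 GC box, 1 TATA box and 10 CpG. By its distance from the Sdc4 window, this unprinted window is the one that matches the mm9 start of the Sulf2 transcript row used here. The printed Sulf2 stretch therefore describes another annotated start, not that of the row whose levels are given. CCAAT, on either strand, was in the Gpc3 and Sulf2 stretches and in 33.8% of all windows. All 3 were rich in CpG, with 25 in Gpc3, 21 in Sulf2 and 19 in Sdc4 against a median of 6 over all windows. These matches describe the letters only. Gpc3 and Sdc4 both carry GC boxes, and their median levels were 532 and 0.20 RPKM.

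Of the members, 3 were read at high level in nearly every cell, and the other 7 were patchy. Gpc3, Mdk and Ptn had medians of 532, 389 and 290 RPKM and were detected in 81, 81 and 79 of 81 cells. Mdk has 3 transcript rows, in which a read may be counted more than once, and their sum has a median of 1043 RPKM, which puts Mdk above Gpc3. Sulf2 followed with a median of 20.7 RPKM, then Gpc6 with 6.35 RPKM, and medians of the 4 syndecans and Sulf1 were below 0.5 RPKM. Ptn and Sulf2 were the only neighbours in this order whose interquartile ranges did not overlap, and Ptn exceeded Sulf2 in 79 of 81 cells. From Sdc1 down to Sulf1, the order of the medians does not separate neighbours beyond their spread over cells. Between 4 and 9 members were detected per cell, with a median of 6, and no cell had all 10. Correlations of a member's level with estimated depth in the 77 deeper cells lay between −0.22 and 0.22.

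**Figure D1:**
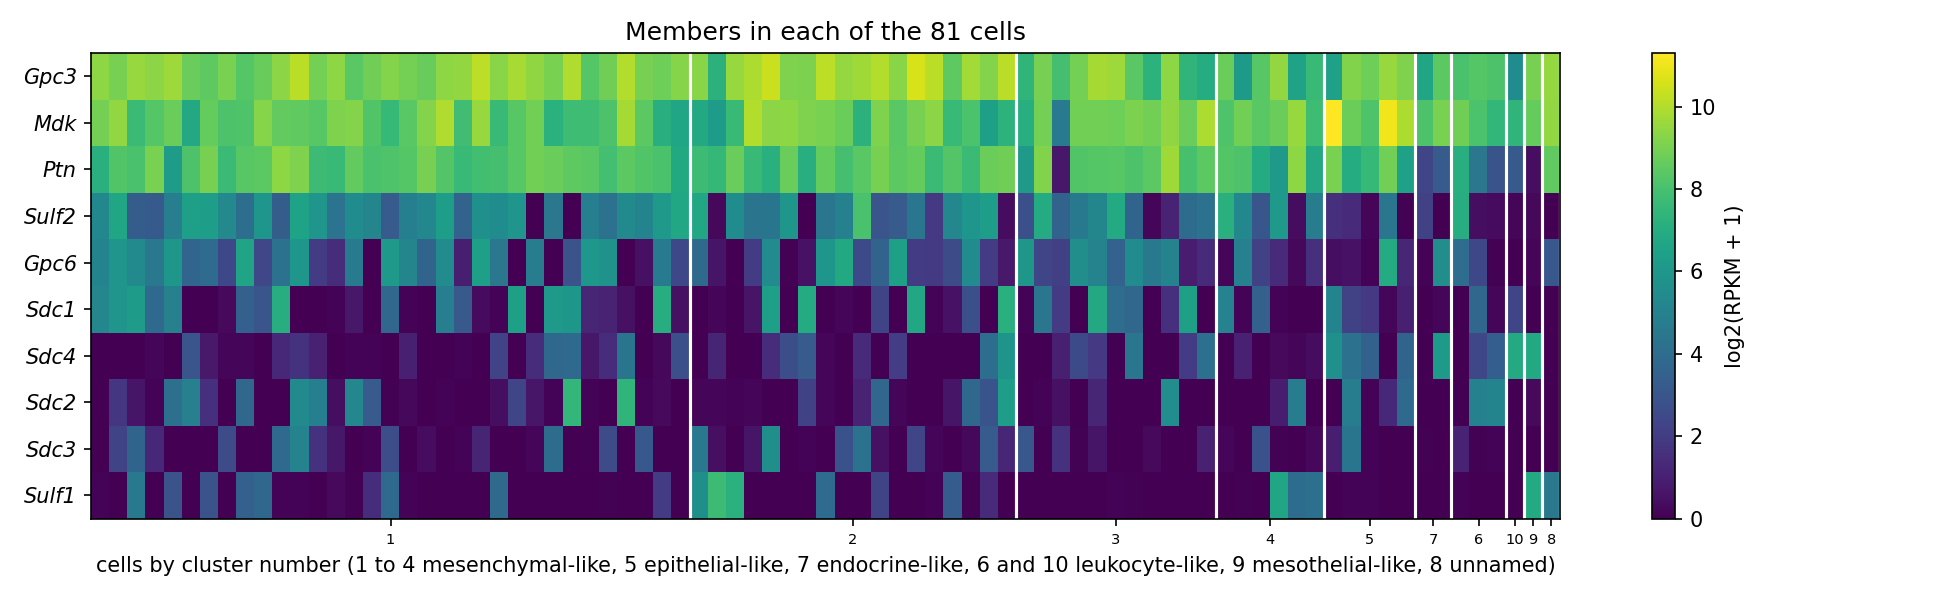
Level of each of the 10 members (rows, log2(RPKM + 1), color) in each of the 81 cells (columns), grouped by cluster. The rows of Gpc3, Mdk and Ptn are bright nearly throughout, with dark cells for Ptn in the endocrine-like, leukocyte-like and mesothelial-like clusters and in C45 of cluster 3, while the syndecan and Sulf1 rows are dark in most cells.

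Mdk encodes midkine, a small secreted growth factor that binds heparan sulfate and is abundant in mid-gestation embryos (mm9 chromosome 2, 91769979 to 91771950, minus strand). It was above 10 RPKM in all 81 cells, from 23.6 RPKM in C45 to 2520 RPKM in C43. The 68 mesenchymal-like cells had a lowest value of 23.6, a median of 376 and a highest value of 1018 RPKM. In the 5 epithelial-like cells, which express the adhesion gene Epcam at 27.6 to 276 RPKM, Mdk read 293 in C82, 428 in C47, 956 in C95, 2128 in C91 and 2520 in C43. C43 and C91 stand above every mesenchymal-like cell, and the other 3 lie within that range. The mean was higher in the epithelial-like cells by 1.45 on the log2(RPKM + 1) scale (9.84 ± 1.37, SD over 5 cells, against 8.39 ± 1 over 68). Without C43 and C91 the difference was 0.56. C43 is 1 of the 4 shallow cells and C91 also expresses the endocrine progenitor gene Neurog3, at 258 RPKM.

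Ptn encodes pleiotrophin, the only close relative of midkine (mm9 chromosome 6, 36665663 to 36761361, minus strand). It ranged from 0.33 RPKM in the mesothelial-like cell C13 to 831 RPKM in C87. Mesenchymal-like cells had a lowest value of 0.68, a median of 305 and a highest value of 831 RPKM, and 67 of the 68 were at 10 RPKM or more. The epithelial-like cells read 87.2 in C95, 126 in C47, 187 in C82, 473 in C91 and 521 in C43, all within the mesenchymal-like range. Both endocrine-like cells, which hold glucagon-type hormone transcripts, were far lower, at 4.14 in C24 and 8.38 in C56. The leukocyte-like cells read 6.71 in C54, 8 in C31, 21.5 in C36 and 140 in C2. C2 also held the collagen genes Col1a2 at 174 and Col3a1 at 57.7 RPKM, while C36 held them at 26.9 and 142 RPKM. No mesenchymal-like cell overlapped the endocrine-like range or the 3 lower leukocyte-like cells: C45, at 0.68 RPKM, lay below them and all others lay above. Mdk did not share this pattern, since it read 284 and 519 RPKM in the endocrine-like cells and 168 to 464 RPKM in the leukocyte-like cells. Mdk exceeded Ptn in 55 of 81 cells, among them all 5 epithelial-like cells and 42 of the 68 mesenchymal-like cells.

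C45 had the lowest level of both ligands among the mesenchymal-like cells. It held 23.6 RPKM of Mdk, the lowest of all cells, and 0.68 RPKM of Ptn, which is about 3.93 reads. The next lowest mesenchymal-like Ptn value was 67.4 RPKM, in C20. The same cell carried neural crest transcripts: Sox10, a transcription factor of neural crest and glia, read 31.9 RPKM and Ret, a receptor of enteric neuron precursors, read 18 RPKM. Sox10 and Ret reached 1 RPKM in no other cell. Gpc3 was still read in C45 at 249 RPKM and Sulf2 at 11.1 RPKM. C45 was singled out after its values were seen, and it is 1 cell.

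Gpc3 encodes glypican-3, a lipid-anchored proteoglycan known for restraining embryonic growth and Hedgehog signalling (mm9 chromosome X, 49625604 to 49967151, minus strand). It was detected in all 81 cells and was the highest of the 10 members in 51 of them, or in 19 when the rows of each gene were summed. Mdk led in 23 cells (61 with rows summed), Ptn in 6 and another member in 1. Values ran from 44.8 RPKM in the leukocyte-like C31 to 1546 RPKM in C80. The median share of Gpc3 in the summed RPKM of the 6 syndecan and glypican members was 91.1%, with a range of 26.5% to 99.99%. Mesenchymal-like cells had a lowest value of 71.1, a median of 595 and a highest value of 1546 RPKM. The 5 epithelial-like cells read 88.2 in C43, 444 in C82, 562 in C95, 567 in C47 and 752 in C91, inside the mesenchymal-like range. The leukocyte-like cells read 44.8, 261, 285 and 319 RPKM and the endocrine-like cells 98.7 and 345 RPKM, so C31 lay below that range and the others in its lower part. Of the mesenchymal-like cells, 57 of 68 exceeded the highest leukocyte-like value and 54 exceeded the highest endocrine-like value.

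Gpc6 encodes glypican-6 (mm9 chromosome 14, 117324537 to 118378751, plus strand) and was detected in 60 of 81 cells (74.1%, exact 95% interval 63.1 to 83.2%). The median was 6.35 RPKM (10.8 without the 4 shallow cells, 12.7 with its 2 transcript rows summed) and the highest value was 124 RPKM, in C91. In mesenchymal-like cells 54 of 68 had it, with a median of 11.2 and a highest value of 117 RPKM. Among the epithelial-like cells, C82, C43 and C47 read 0.06, 0.36 and 0.48 RPKM, C95 read 1.31 and C91 read 124 RPKM. Thus 4 of 5 were below the mesenchymal-like median and the fifth was above every other cell in the data. The class difference was −1.51 log2 and became −2.78 without C91.

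The syndecans carry heparan sulfate on a membrane-spanning core and act as co-receptors for growth factors and matrix. Sdc1 (mm9 chromosome 12, 8778202 to 8800493, plus strand) was detected in 38 cells, Sdc4 (mm9 chromosome 2, 164249747 to 164268688, minus strand) in 35, Sdc2 (mm9 chromosome 15, 32850478 to 32964476, plus strand) in 26 and Sdc3 (mm9 chromosome 4, 130348452 to 130382233, plus strand) in 25. These counts depend on the threshold: at 10 RPKM they were 25, 14, 17 and 8, so that Sdc2 passed Sdc4, and above 0 they were 57, 49, 50 and 48. Each was high in a few cells, with maxima of 144 RPKM for Sdc1 in C96, 177 for Sdc2 in C73, 120 for Sdc4 in C31 and 48.5 for Sdc3 in C50. The 5 highest cells held 40.8% of the summed Sdc1 RPKM, 55% of Sdc3, 61.6% of Sdc2 and 65.8% of Sdc4.

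Sdc4 was the syndecan that differed most between classes. In mesenchymal-like cells it ran from 0 to 56.1 RPKM with a median of 0.13, and 26 of 68 cells were at 1 RPKM. The epithelial-like cells read 10.4 in C82, 11.4 in C95, 17.6 in C47 and 49.4 in C43, and it was listed at 0 in C91. Of these, 4 thus exceeded 10 RPKM, a level that 7 of 68 mesenchymal-like cells reached, and the ranges overlap. The difference of means was 2.37 log2 (3.40 ± 2.08 over 5 cells, against 1.03 ± 1.45 over 68), 3.22 without C91 and 1.8 without C43. The highest Sdc4 values lay outside both classes, at 120 RPKM in the leukocyte-like C31, 117 in the mesothelial-like C13 and 69.6 in the endocrine-like C56. C13 and C56 also held epithelial markers, with Epcam at 51.6 and 12.3 and Krt8 at 131 and 24.9 RPKM. Another, Cdh1, was at 0 and 0.38 RPKM in them. In C31 Epcam, Krt8 and Cdh1 were listed at 0.

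Sdc1, known as the main syndecan of adult epithelia, had a slightly lower mean in the epithelial-like cells, by 0.20 log2, well within the spread over cells. It read 0.10 in C91, 1.01 in C95, 2.63 in C82, 3.49 in C47 and 33.5 in C43. Mesenchymal-like cells ran from 0 to 144 RPKM with a median of 0.49, 32 of 68 had it, and 14 of them exceeded C43. Both endocrine-like cells were below 1 RPKM. The 6 highest Sdc1 cells in the data were all mesenchymal-like. Sdc2 read 0 to 26.2 RPKM in epithelial-like cells and 0 to 177 RPKM in mesenchymal-like cells, and Sdc3, the syndecan best known from neurons, 0 to 19.8 and 0 to 48.5 RPKM. Their class differences of 0.69 and 0.04 log2 are smaller than the SD over cells within either class.

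**Figure D2:**
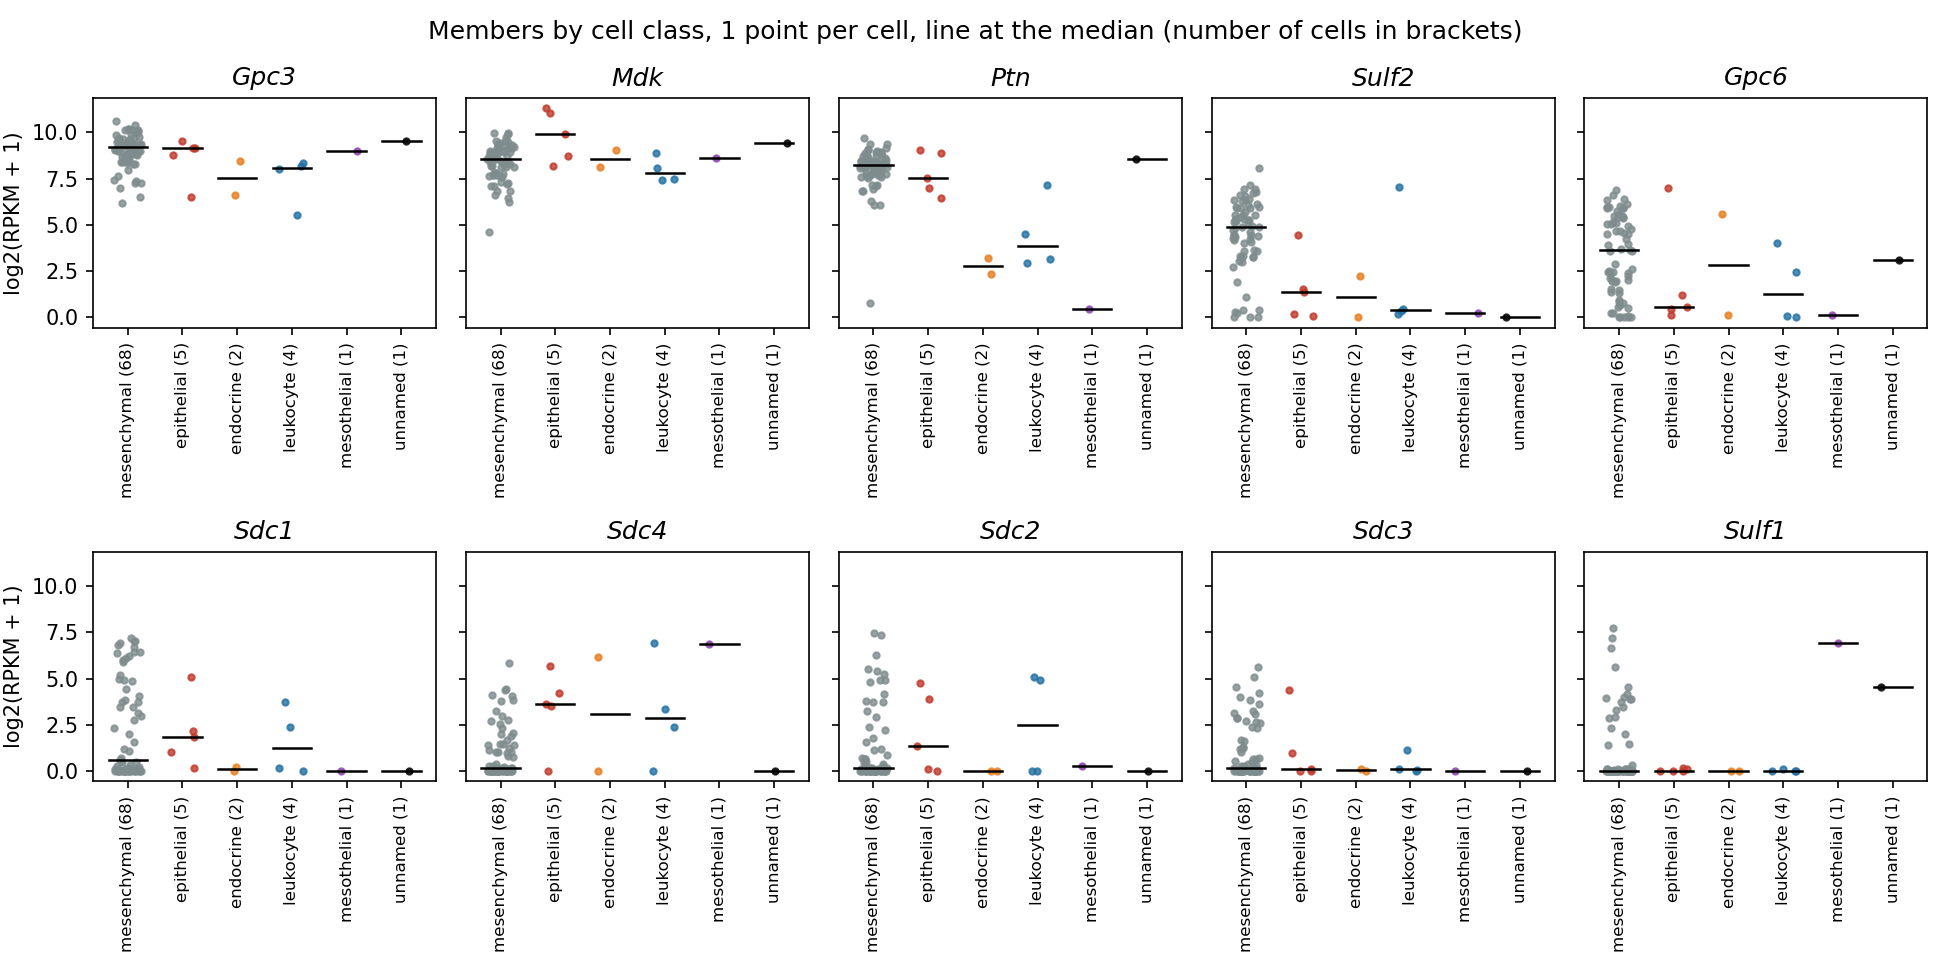
Level of each member (log2(RPKM + 1)) by cell class, 1 point per cell with a line at the median. Sulf2 points of the mesenchymal-like class lie mostly above those of the other classes, Ptn points of the endocrine-like cells lie far below them, and Sdc4 points are high in 4 of 5 epithelial-like cells.

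Sulf2 was the broadly read sulfatase (mm9 chromosome 2, 165899399 to 165981183, minus strand). It was detected in 66 of 81 cells (81.5%, 71.3 to 89.2%), with a lowest value of 0, a median of 20.7 and a highest value of 267 RPKM in C76. In mesenchymal-like cells 61 of 68 had it, the median was 28.2 RPKM and 51 were at 10 RPKM or more. The epithelial-like cells read 0.06 in C95, 0.11 in C82, 1.53 in C47, 1.89 in C43 and 20.6 in C91. All 5 lay below the mesenchymal-like median, and 40 of 68 mesenchymal-like cells exceeded the highest of them. This gave the largest epithelial-like difference of any member, −2.97 log2 (1.51 ± 1.76 against 4.47 ± 1.96), and −3.70 without C91. Endocrine-like cells read 0 and 3.66 RPKM. In 3 leukocyte-like cells it read 0.13 to 0.33 RPKM, while C2 read 130 RPKM, the third highest value in the data. The summed mesenchyme markers of the leukocyte-like cells ran from 49.2 to 427 RPKM, and C2 held Col1a2 at 174 RPKM. The part of such transcripts in the C2 value was not tested.

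Sulf1 (mm9 chromosome 1, 12682511 to 12850453, plus strand) was the rarest member. It was detected in 21 of 81 cells (25.9%, 16.8 to 36.9%), was listed at 0 in 45, and reached 212 RPKM in C35. The 5 highest cells held 78.3% of its summed RPKM. Of the mesenchymal-like cells 19 of 68 had it. No epithelial-like cell did, their highest value being 0.10 RPKM, but 0 of 5 cells allows a share of up to 52.2%. In the leukocyte-like and endocrine-like classes it was 0 of 4 and 0 of 2, which allow up to 60.2% and 84.2%. The class difference of −1.07 log2 was −0.82 without the 6 mesenchymal-like cells that carry other markers. It was 0.19 when 2000 variable genes were used for the clustering, which gave 6 epithelial-like cells in place of 5. In C3, the shallowest cell, a Sulf1 value of 22.3 RPKM rests on about 2.03 reads.

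Sulf1 was high in the cells that carried several mesothelial markers. Mesothelium is the sheet of cells covering the organ, marked here by Upk3b, Upk1b, Msln, Lrrn4, Gpm6a, Wt1 and Krt7. In all, 4 cells reached 10 RPKM in at least 3 of these 7 genes: C13, C29, C37 and C41. Sulf1 read 120 in C13, 101 in C29, 15 in C37 and 147 in C41. All 4 were at 10 RPKM or more, against 9 of the other 77 cells. They include 3 of the 4 highest Sulf1 cells. C41 passed with Lrrn4, Gpm6a and Wt1 at only 10.2, 12.3 and 13.1 RPKM. C11, the fifth highest, held Wt1 at 36 RPKM and each other marker at 0.09 RPKM or less. Wt1 is not limited to such cells, since C36 and C43 read 61.3 and 29.3 RPKM with Sulf1 listed at 0. In the shallow C3, Wt1 read 32.8 and Sulf1 22.3 RPKM. C35, the highest of all, had all 7 markers listed at 0. Gpc6 was low in the same cells, at most 1.58 RPKM in the 4 against a median of 10.8 RPKM in the other 77. Sdc1 and Sdc3 reached 1 RPKM in 0 of the 4, but also in only 38 and 25 of the other 77. Low values of these syndecans are thus not particular to the 4 cells. Wt1 read 13.1 to 127 RPKM in the 4, and Msln was listed at 0 in each. This grouping was made after the Sulf1 values were seen, and no test was made.

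Counted over the 10 members, the epithelial-like cells were at least 1 log2 unit higher in 2 (Mdk and Sdc4), where 17.8% of 13237 genes were higher by that much. They were at least 1 log2 unit lower in 3 (Gpc6, Sulf1 and Sulf2), where 5.8% of genes were. A gene can be counted lower in any class only where its mesenchymal-like mean is at least 1 log2 unit. All 10 members reach that and some of the 13237 genes do not, so the shares of lower genes are not a like background. With 5 cells against 68, the counts describe these cells only. The summed RPKM of the mesenchyme markers was 139 to 408 in the epithelial-like cells, with Lum, Postn and Nkx3-2 listed at 0 in all 5, and 99.7 to 1309 in the mesenchymal-like cells. Summed epithelial markers were 405 to 1654 RPKM in the former and had a median of 0 in the latter. The part of these marker levels in the member differences was not tested.

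The endocrine-like cells were at least 1 log2 unit lower than the mesenchymal-like cells in 7 members, where 12.5% of genes were, and higher in 1, where 23.6% were. The lower ones were Ptn by 5.24 on the log2 scale, Sulf2 by 3.37, Sdc1 by 2.15, Gpc3 by 1.48, Sdc2 by 1.32, Sulf1 by 1.12 and Sdc3 by 1.02, and the higher one was Sdc4 by 2.04. That Sdc4 difference comes from C56 alone, at 69.6 RPKM, since C24 was listed at 0. Of the lower members, Sdc1, Sdc2, Sdc3 and Sulf1 were below 1 RPKM in both endocrine-like cells. Their mesenchymal-like medians were also below 1 RPKM, at 0.49, 0.10, 0.11 and 0. The leukocyte-like cells were lower in 5 members, where 14.9% of genes were, and higher in 2, where 12.2% were. The lower ones were Ptn by 3.60, Sulf2 by 2.48, Gpc6 by 1.72, Gpc3 by 1.51 and Sulf1 by 1.1, and the higher ones were Sdc4 by 2.14 and Sdc2 by 1.19. Sdc2 was read in C36 and C54, at 29.8 and 33.5 RPKM, and listed at 0 in C2 and C31. All 3 comparisons share the mesenchymal-like cells. Ptn was thus low in both of these classes but within range in epithelial-like cells, while Sulf2 had a lower mean in all 3; whether those differences differ was not tested.

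**Figure D3:**
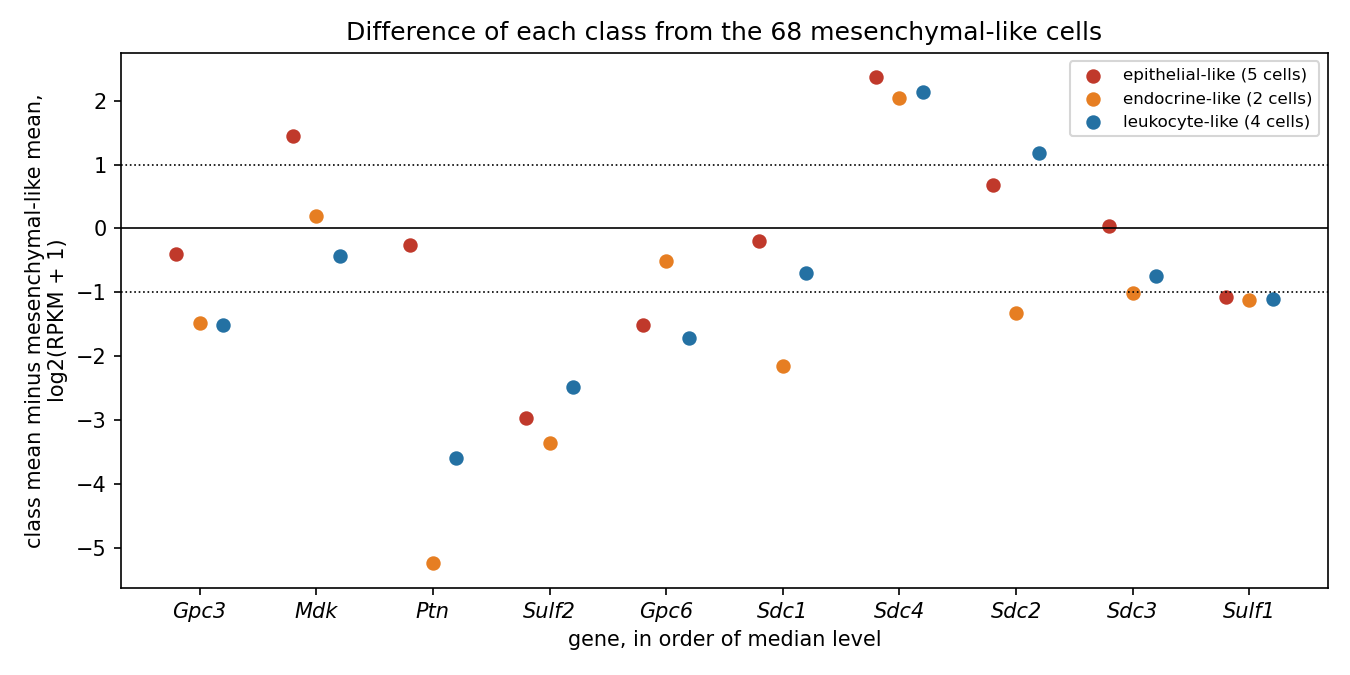
Difference of class mean log2(RPKM + 1) from the 68 mesenchymal-like cells for each member, in order of median level, with dotted lines at 1 and −1. Sulf2 lies below −2 in all 3 classes and Sdc4 above 2 in all 3, while Ptn is near 0 in epithelial-like cells and −5.24 in endocrine-like cells.

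Among the mesenchymal-like cells themselves, the 4 clusters of 33, 18, 11 and 6 cells had Gpc3 medians of 596, 783, 342 and 266 RPKM. Their ranges overlap, from 314 to 1152 in cluster 1, 154 to 1546 in cluster 2, 127 to 872 in cluster 3 and 71.1 to 710 in cluster 4. Sulf1 was detected in 9 of 33, 7 of 18, 0 of 11 (which allows up to 28.5%) and 3 of 6 cells. Cluster 3, the one without Sulf1, is led by the mitosis genes Cenpa, Cdc20 and Top2a. Mdk had cluster medians of 330 to 475 RPKM and Ptn of 203 to 324 RPKM, a narrow span beside their spread over cells. Split by the cell number in the labels, Sdc4 was detected in 12 of 40 cells numbered up to 48 and 23 of 41 numbered above, and Sulf1 in 14 of 40 and 7 of 41. Sdc1 was detected in 19 cells of each part. What these numbers stand for is not stated. The parts had no first library index in common, so the split cannot be told apart from the index.

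Most cells combined few syndecans with Sulf2. None of the 4 syndecans was detected in 13 cells, 1 in 31, 2 in 20, 3 in 15 and all 4 in 2. Both sulfatases were detected in 17 cells, Sulf2 alone in 49 (60.5%, 49 to 71.2%), Sulf1 alone in 4 and neither in 11. The cells with both were all mesenchymal-like. Sulf1 was found in 17 of the 66 cells with Sulf2 and in 4 of the 15 without it, nearly the same share. C13 and the shallow C3 are among the 4 cells with Sulf1 alone.

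**Figure D4:**
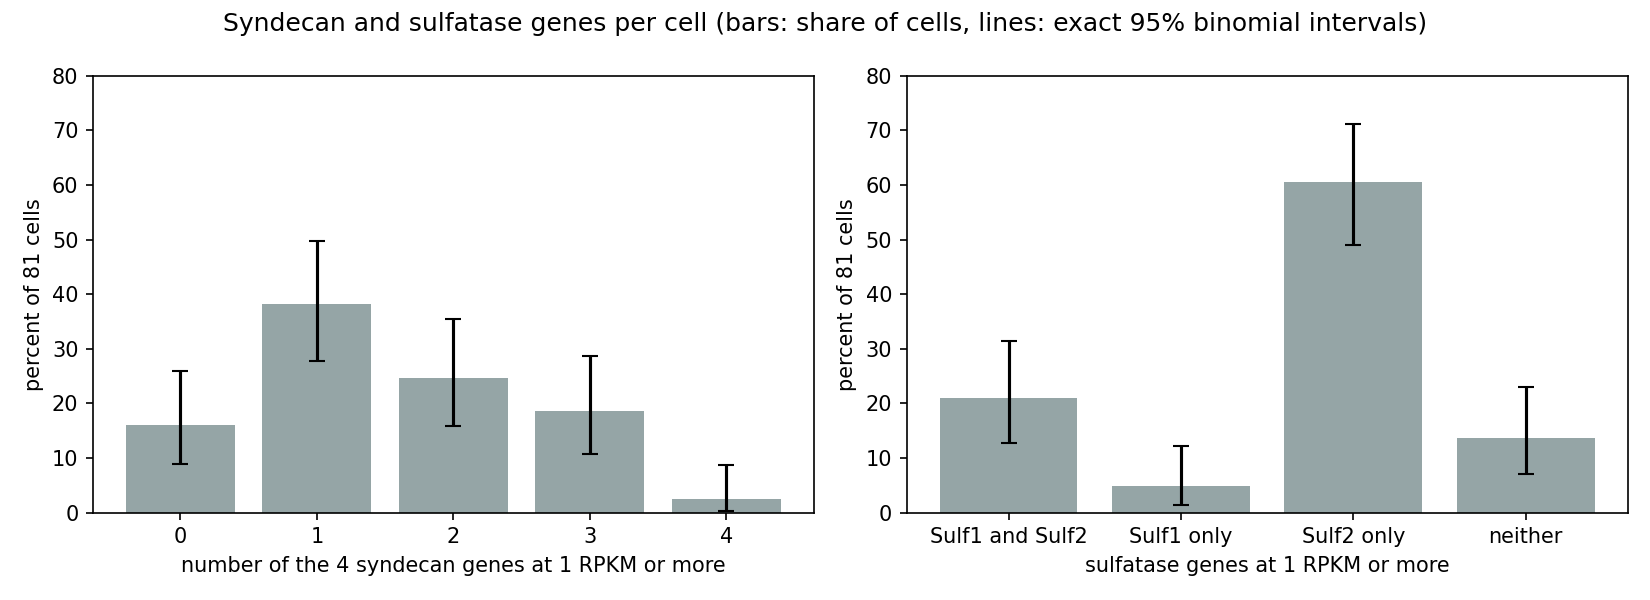
Share of the 81 cells by number of syndecan genes detected (left) and by sulfatase genes detected (right), bars with exact 95% binomial intervals. The most frequent states are 1 syndecan, in 31 cells, and Sulf2 without Sulf1, in 49 cells.

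Other genes of heparan sulfate metabolism and of midkine reception were taken from lists of core proteins, chain assembly, chain sulfation, chain editing and breakdown, and receptors. Of 61 such genes in the table, 50 could be compared. In epithelial-like cells 5 were at least 1 log2 unit higher and 2 lower, with a median difference of −0.17 against −0.01 over all genes. At this setting the share of higher genes in the lists is below the 17.8% over all genes. The count of higher list genes moved with the processing, as given in the last section, so this order is not settled.

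Among the other core proteins, Gpc1 was detected in 80 of 81 cells with a median of 46.4 RPKM, above the medians of Gpc6 and every syndecan. Agrn, which encodes the basement membrane proteoglycan agrin, was detected in 62 cells with a median of 8.18 RPKM. Col18a1, another basement membrane proteoglycan gene, was higher in epithelial-like cells by 2.51 log2 and was detected in 4 of 5 of them against 6 of 68 mesenchymal-like cells. Gpc5 was listed at 0 in all cells.

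Of 10 chain assembly genes, 1 was lower and none was higher. Ext1, a subunit of the polymerase that extends the chain, was detected in 48 cells and differed by −1.16 log2. Its partner Ext2 was detected in 29 cells and differed by 0.28, while Ugdh, which makes a sugar precursor, was detected in 45 and B4galt7, a linker enzyme, in 34.

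Of 15 chain sulfation genes, 3 were higher and 1 was lower. Hs6st1, which adds the 6-O-sulfate that the Sulf enzymes remove, was higher by 3.03 log2 (3.39 ± 2.39 against 0.36 ± 0.98). It was detected in 4 of 5 epithelial-like cells, with a highest value of 58.4 RPKM, and in 7 of 68 mesenchymal-like cells. The class means of Sulf2 and Hs6st1 therefore differed in opposite directions, and the 2 genes were not compared cell by cell. Slc35b2, a transporter of the sulfate donor into the Golgi, was higher by 1.68 and Papss2, which makes that donor, by 1.24, the latter from C82 alone at 73.8 RPKM. Papss1, the other donor enzyme, was lower by 1.34. Papss1, Hs2st1 and Ndst1 were the most often detected of the list, in 35, 30 and 29 cells.

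Of 11 other editing and breakdown genes, Glb1, a lysosomal galactosidase, was higher by 1.73 and none was lower. Gusb and Glb1 were detected in 21 and 19 cells. In the receptor list none of 9 genes differed by 1. Ptprs, a receptor phosphatase that binds heparan sulfate chains, and Ncl, nucleolin, were detected in all 81 cells with medians of 73.5 and 51.8 RPKM, and Itgb1, an integrin subunit, in 74. Alk and Ltk, receptor tyrosine kinases linked to these ligands, were listed at 0 in every cell, and Ptprz1, a phosphatase receptor of pleiotrophin, was detected in 2. In endocrine-like cells 14 of the 50 genes were higher and 6 lower, beside 23.6% and 12.5% of all genes. In leukocyte-like cells 7 were higher and 4 lower, beside 12.2% and 14.9%.

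The members varied largely on their own. Correlations of log2(RPKM + 1) over cells describe cells that share a device and in part a library index, and carry no test. Among 6290 genes, Ptn was most like Sparcl1, a secreted matrix-associated protein, with r = 0.71 over 81 cells, 0.56 within the 68 mesenchymal-like cells and 0.58 without C45 and C13, and Spearman's rho was 0.37. The next, Col3a1 and Igf2, had r = 0.61 and 0.60, which fell to 0.37 each without those 2 cells. Their Spearman's rho over all cells was only 0.20 and 0.04. Gpc3 was most like Cdkn1c, an imprinted inhibitor of the cell cycle, with r = 0.64 over all cells and 0.51 within mesenchymal-like cells, and Igf2r, the imprinted IGF2 clearance receptor, with 0.61 and 0.51. Sept2 followed with 0.57. Spearman's rho with Gpc3 was 0.52 for Cdkn1c, 0.54 for Igf2r and 0.30 for Sept2. Sulf2 was most like Smoc2, with 0.47 (rho 0.41), and Gpc6 most like the basement membrane gene Nid1, with 0.44 (rho 0.47). Mdk was most like Park7, with 0.40, but with a rho of 0.20. For the patchy Sdc1, Sdc2, Sdc3, Sdc4 and Sulf1 the leading r was 0.35 to 0.47, too weak in such sparse values to name a partner.

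Between members the correlations were small. Mdk and Ptn had r = 0.46 in the 68 mesenchymal-like cells and 0.19 without C45. Sdc4 and Sulf2 had r = −0.43 over all cells and −0.17 within the mesenchymal-like cells, and the plot of these levels shows the 3 highest Sdc4 values in cells outside the mesenchymal-like class.

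**Figure D5:**
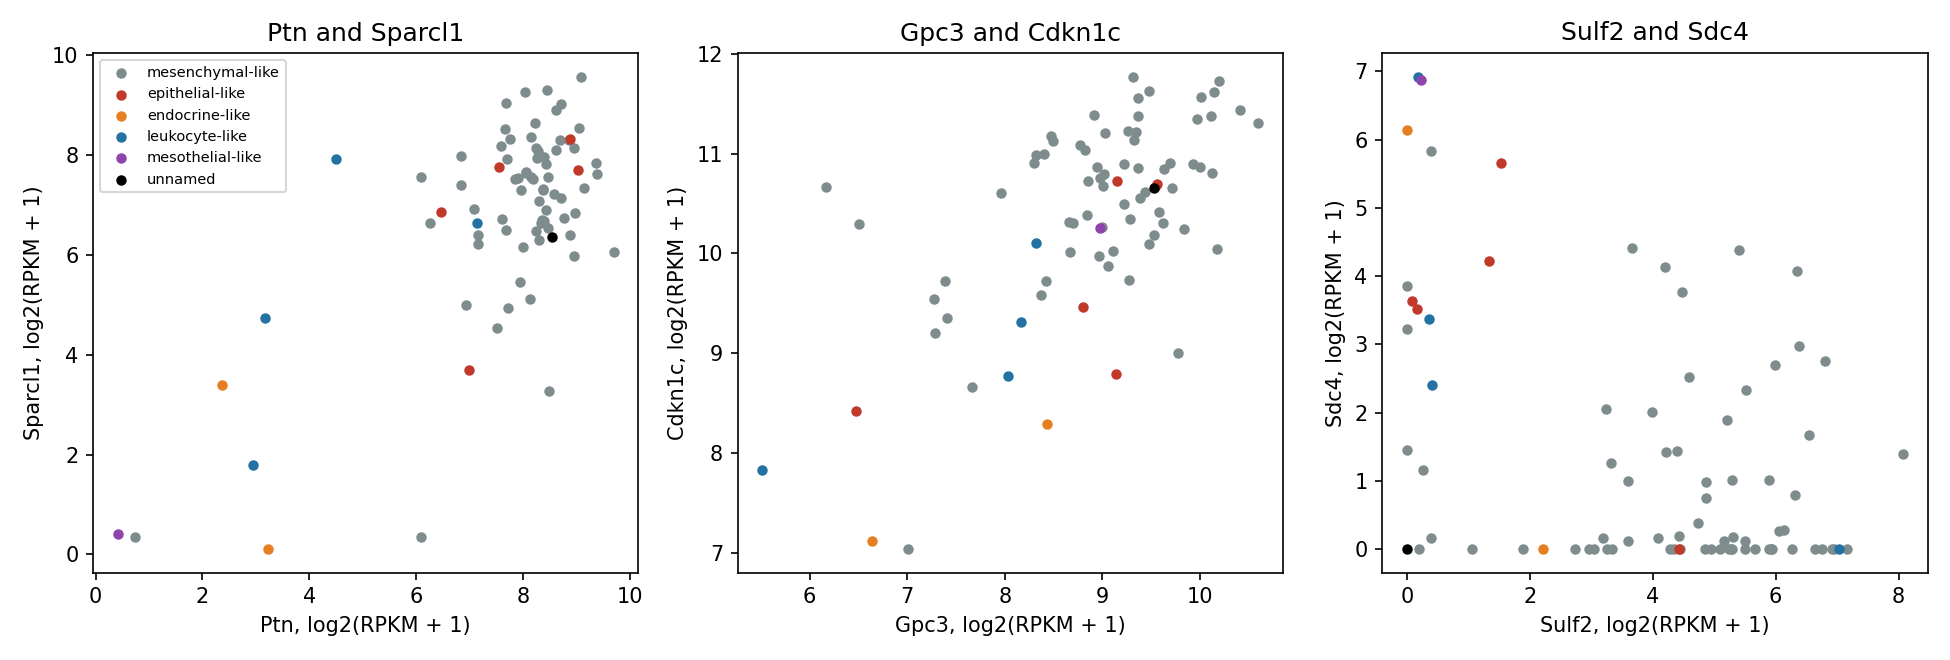
Level of Ptn against Sparcl1, Gpc3 against Cdkn1c and Sulf2 against Sdc4, all as log2(RPKM + 1), 1 point per cell colored by class (81 cells). The r of 0.71 for Ptn draws in part on the low cells outside the mesenchymal-like class, and C45 is the mesenchymal-like point near 0 on both axes.

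Libraries that share an index sequence were compared because reads can be assigned to a wrong library. Every library had its own pair from 12 first and 8 second indices. Of the 13 cells sharing an index with C73, the cell of highest Sdc2, 5 had Sdc2 at 1 RPKM and 11 had any value above 0, against 20 and 38 of the 67 others. For Sulf1 and C35 the counts were 5 and 10 of 16, against 15 and 25 of 64. Detection at 1 RPKM of Sdc4 (7 of 17 against 27 of 63) and Sulf2 (12 of 15 against 53 of 65) was nearly even in this comparison. Against all cells at 10 RPKM it was not for Sdc4: of the cells below that level, 20 of 55 that shared an index with such a cell read 1 to 10 RPKM and 14 read less but above 0, against 1 and 0 of 12 that shared none. For comparison, the hormone gene Gcg, at 48647 RPKM in C24, was at 1 RPKM in 11 of 16 sharing cells and 11 of 64 others. Values below 1 RPKM, which 24 cells held for Sdc2 and 15 for Sulf1, were not counted as detection. The part of index sharing in the members' low values was not tested.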

How the data were processed

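RPKM values per transcript and cell were deposited by the authors in 1 table with mm9 coordinates. The unit is not stated. It was taken as RPKM because low values times transcript length (GENCODE vM21) fell within 0.15 of whole reads for a median of 79.8% of values per cell (lowest 76.8%), and those steps gave the estimated depths. SMARTer cDNA and Nextera XT libraries were made per the labels' protocols, with no molecular identifiers, so reads are not independent molecules. CASAVA 1.8.2 and mm9 are named per the submitters' processing notes. The aligner, counting tool, annotation and cell filters were not given in the sources used here.

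Isoform rows share reads, so the row of highest mean stood for a gene. Transcripts of other abundant genes can be near 0 in this table (Gapdh had a mean of 0.62 RPKM and Actb 4289), so a value of 0 is called listed at 0. Genes above 0 in at least 3 cells (13237) were used as log2(RPKM + 1), which understates differences of low genes. With members and pathway genes held out, 10 principal components of 1000 variable genes were cut into 10 clusters by Ward's method. Names came from marker lists: the winning list had the largest share of genes that 50% or more of a cluster's cells held at 10 RPKM, and a minimum of 3 such genes was required. No doublet caller was run. Differences are of class means, counted at 1 log2 unit. Named genes are the members, the 3 most correlated genes per member (those of sparse members only as a range), and per pathway list up to 4 genes per direction with the largest differences of at least 1 and the 3 most detected. Col3a1 is also a mesenchyme marker. Ext2, Gpc5, Alk, Ltk, Ptprz1, Gcg, the markers given by cell, and C45, C13, C29, C37 and C41 were named after their values were seen. Some genes that the rule names are not reported here. Members and lists were chosen with earlier results of these data known. Intervals are exact Clopper-Pearson at the 95% level and cover counting error only. Promoter stretches are RefSeq windows of GRCm38.p6. Python 3.11.15, numpy 2.4.6, pandas 2.3.3 and scipy 1.17.1 were used, and the clustering, the differences and the depth estimate were tested on simulated data.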

Additional observations from a re-analysis of the deposited data

How the results depend on the processing

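With 1 sample, these alternatives show how values move, not whether they would recur. Across 20 alternatives for the epithelial-like difference, the sign was the same in all 20 for Mdk (0.56 to 1.86), Sdc4 (0.96 to 3.56), Gpc6 (−2.78 to −0.48) and Sulf2 (−3.95 to −1.49), and in 19 for Sulf1. Sulf1 reached 0.19 with 2000 variable genes, a setting that made the epithelial-like class 6 cells in place of 5. The part of that change of class in the value was not tested. Summing transcript rows, which can count a read more than once, raised the Mdk median from 389 to 1043 RPKM and turned the order of Mdk and Gpc3. A pseudocount of 10, which shrinks differences of low levels, left 1 member higher and 1 lower. Of the other pathway genes, 14 were higher and 5 lower with a pseudocount of 0.1, and 1 and 0 with a pseudocount of 10. The number higher was 9 without the 4 shallow cells, 8 without C43, 8 without C95 and 9 without C43 and C91. The number lower was 6 without C47. The cause was not tested. Shares over all genes were not computed at these other settings, so the member and pathway counts given for them have no like background. Counting the highest member with rows summed, and leaving out single epithelial-like cells, C43 with C91, C45 with C13, C22 with C72, or the 6 mesenchymal-like cells with other markers, were chosen after seeing the data. No paired analysis was possible because the labels give 1 group. Depth limits low values in C3, C61, C94 and C43, where 1 read can exceed 1 RPKM.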
